A study of Mus musculus with 6 samples.

Results

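The genes described here are 10 enzymes of NAD salvage and of the kynurenine pathway, found by their symbols among the 55335 mouse Ensembl identifiers of an FPKM table from macrophages that had been raised in culture from mouse bone marrow (BMDMs). They are *Nampt*, *Naprt*, *Nadk*, *Cd38*, *Bst1*, *Ido1*, *Kmo*, *Kynu*, *Haao* and *Qprt*, and each had 1 identifier in the table. BMDMs of WT genotype were grown for 7 days with 25 ng/ml macrophage colony-stimulating factor and then shared a dish for 24 h with neutrophils that had been taken from contused mouse spinal cord at 3 dpi (days post-injury). In 3 libraries the neutrophils came from *Cd177* WT mice and in 3 from *Cd177* KO mice. The mice of the study were male, and those it bought as wild type were adult C57BL/6. Its methods do not name the strain of the *Cd177* KO mice. CD177 is a surface protein of a subset of neutrophils. The comparison asks how macrophage transcripts differ when the neutrophils beside them lack it. After the co-culture, cells negative for the neutrophil antigen Ly6G were sorted, a gate that removes neutrophils but does not select macrophages. How many mice stand behind a library is not given in the sources used here, so the spread between replicates may be partly technical.

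NAD carries electrons in metabolism and is also used up as a substrate by signalling enzymes, so cells rebuild it continuously. *Nampt* encodes the enzyme that starts salvage from nicotinamide, *Naprt* the enzyme that starts it from nicotinic acid, and *Nadk* the kinase that turns NAD into NADP. *Cd38* and *Bst1* encode related enzymes at the cell surface that split NAD and make cyclic ADP-ribose. The kynurenine pathway makes NAD anew from tryptophan, with *Ido1* at its entry, *Kmo* and *Kynu* along its middle, and *Haao* and *Qprt* at the steps that form and use quinolinic acid. NAMPT is known as a product of activated myeloid cells, CD38 as a gene of inflammatory mouse macrophages, and IDO1 as an enzyme induced by interferon gamma.

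The table held FPKM (fragments adjusted for gene length and for library total) without read counts. Low values pointed to 17700000 to 20300000 fragments per library, an estimate only, because between 39.9% and 43.5% of them fell within 0.1 of a whole fragment number. The limma test was run on log2(FPKM + 0.5) for the 13367 genes whose 6 libraries averaged 0.5 FPKM or more. Adding 0.5 makes fold changes of weakly expressed genes look smaller than they are. *Cd177* itself had 0.544, 0.309 and 0.521 FPKM in the WT-labelled libraries and 1.79, 1.84 and 2.28 FPKM in the KO-labelled ones. The sequenced macrophages carry the intact gene, so these values do not check the genotype of the neutrophils. *Cd177* is among the 8 neutrophil markers called higher in the KO-labelled libraries below. The source of its higher level there, and whether the labels are right, were not tested. Every direction below is between libraries as labelled. Replicate 3 of each group stood apart from replicates 1 and 2 on the second principal component, which held 13.5% of the variance. Macrophage markers were high in every library, with a summed level of 5826 to 6899 FPKM over 8 genes in the WT-labelled libraries and of 7225 to 7897 FPKM in the KO-labelled ones. Of these 8, 2 were higher, 1 was lower and 5 were not called. Neutrophil markers summed to 178.9 to 240.3 FPKM over 10 genes in the WT-labelled libraries and to 508.8 to 520.2 FPKM in the KO-labelled ones, where 8 of the 9 tested were higher and *Mmp8* was lower. *Ly6g* was listed at 0 in the WT-labelled libraries and had at most 0.66 FPKM in the KO-labelled ones. B-cell markers summed to 0.711 to 1.35 and 13.0 to 15.4 FPKM over 5 genes. Both that were tested, *Ighm* and *Cd79b*, were higher, while *Ms4a1* reached at most 0.0447 FPKM in any library. *Cd177*, *Cxcr2* and *Ighm* passed the filter only through the KO-labelled libraries, as the WT-labelled ones averaged 0.458, 0.382 and 0.247 FPKM. They had to differ to be tested, so their calls are given as a description. Over all tested genes 27.1% were called higher and 10.5% lower. T-cell markers (4 genes, 0.241 to 0.598 against 0.238 to 1.09 FPKM) and dendritic cell markers (4 genes, 0.078 to 0.14 against 0.264 to 0.522 FPKM) lay under the filter.

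The enzymes that bring precursors into NAD moved in opposite directions. *Nampt* fell and *Naprt* rose in the KO-labelled libraries, and *Nadk* rose by a smaller step. *Nampt* (ENSMUSG00000020572, chromosome 12 from 32819545 to 32853349 on the plus strand of GRCm38, as are all positions taken here from GENCODE M21) had 88.4, 91.6 and 102.2 FPKM in the WT-labelled libraries and 19.8, 20.7 and 21.7 FPKM in the KO-labelled ones. The groups lay far apart, and the spread within each was small beside the gap. Its mean FPKM was 4.54 times higher in the WT-labelled libraries (94.1 ± 7.24 against 20.7 ± 0.975 FPKM, SD, n = 3 each). On the log2 scale *Nampt* changed by -2.15 (standard error 0.09, 95% interval -2.36 to -1.94, limma, Benjamini-Hochberg adjusted p = 9.82e-06 over all tested genes).

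The RefSeq table (GRCm38.p6) held a promoter window, 250 bases before to 50 after the start, for 6 of the 10 genes, with 7 windows in all. The RefSeq start of *Nampt* lies inside the GENCODE bounds given above, where a further transcript starts upstream, so the bases before it are intronic to that transcript and in no annotated exon. The *Nampt* window is 76.3% G or C and holds 36 CpG dinucleotides, where the medians over all 32851 windows are 52.7% and 7. The plan was to print members that moved by the largest steps. *Bst1* and *Cd38* fell further than *Nampt*, and of these only *Cd38* has a window. The 250 bases before the *Nampt* start are printed instead, because *Nampt* is the most abundant of the members that fell. Each GGGCGG (the GC box, on either strand) is in capitals:

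*Nampt*, chr12:32820085-32820334, plus strand: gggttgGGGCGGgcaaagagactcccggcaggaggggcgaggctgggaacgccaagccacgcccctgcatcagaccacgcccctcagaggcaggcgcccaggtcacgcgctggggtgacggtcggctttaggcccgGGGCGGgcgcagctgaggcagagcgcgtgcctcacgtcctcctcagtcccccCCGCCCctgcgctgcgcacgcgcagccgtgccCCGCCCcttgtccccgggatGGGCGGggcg

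The GC box occurs 5 times in this window. It is present at least once in 35.7% of all windows and at least 5 times in 2.71% of them, and it was looked for after the sequence had been seen. The window of *Cd38*, which fell as well, differs in composition, with 51.7% G or C, 1 CpG and 0 GC boxes.

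*Naprt* (ENSMUSG00000022574, chromosome 15 from 75890956 to 75894481, minus strand) had 0.633, 0.838 and 1.11 FPKM in the WT-labelled libraries and 3.05, 2.74 and 4.26 FPKM in the KO-labelled ones. All 3 libraries labelled KO lay above all 3 labelled WT, although the gene stayed far below *Nampt* in each of the 6. The log2 fold change was 1.49 (standard error 0.20, 95% interval 1.03 to 1.96, limma adjusted p = 0.00146). It shares 277 exonic bases with *Eef1d*, a translation factor gene on the same strand. *Eef1d* was not called (10.6 ± 2.36 and 11.7 ± 1.05 FPKM, SD, n = 3 each, limma adjusted p = 0.48). It was more abundant than *Naprt* in both groups, and the part of its reads in the *Naprt* values was not tested.

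*Nadk* (ENSMUSG00000029063, chromosome 4 from 155562378 to 155591001, plus strand) had 38.1, 35.7 and 23.7 FPKM in the WT-labelled libraries and 49.7, 53.2 and 46.0 FPKM in the KO-labelled ones. The groups did not overlap, but replicate 3 labelled WT lay well below both others of its group. The log2 fold change was 0.63 (standard error 0.18, 95% interval 0.20 to 1.06, limma adjusted p = 0.0334). This call was the least stable of the members. It was lost without KO replicate 1, 2 or 3 (adjusted p = 0.0908, 0.105 and 0.0609), when weakly expressed genes were kept in (0.0798), and with median-of-ratios or upper-quartile scaling between libraries (changes of 0.40 and 0.42 on the log2 scale, adjusted p = 0.112 and 0.0918). With both replicates 3 left out it held, at a log2 fold change of 0.47 (adjusted p = 0.00436).

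Because FPKM is corrected for gene length, members can be ranked by level within a library. In each of the 3 libraries labelled WT the order was *Nampt*, *Nadk*, *Bst1*, *Cd38*, *Naprt*. In each of the 3 labelled KO it was *Nadk*, *Nampt*, *Naprt*, *Bst1*, *Cd38*. Ratios within a library do not depend on scaling between libraries. The *Nampt* to *Naprt* ratio was 139.7, 109.3 and 92.0 in the WT-labelled libraries and 6.49, 7.55 and 5.10 in the KO-labelled ones. *Nampt* thus made up 98.9% to 99.3% of the summed *Nampt* and *Naprt* level in the WT-labelled libraries and 83.6% to 88.3% in the KO-labelled ones. The *Nadk* to *Nampt* ratio was 0.431, 0.390 and 0.232 in the WT-labelled libraries and 2.52, 2.57 and 2.12 in the KO-labelled ones, so it crossed 1 between the groups. With 3 libraries against 3, an exact two-sided permutation test of a single value cannot go below p = 0.1, and none was run on these ratios.

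**Figure D1:**
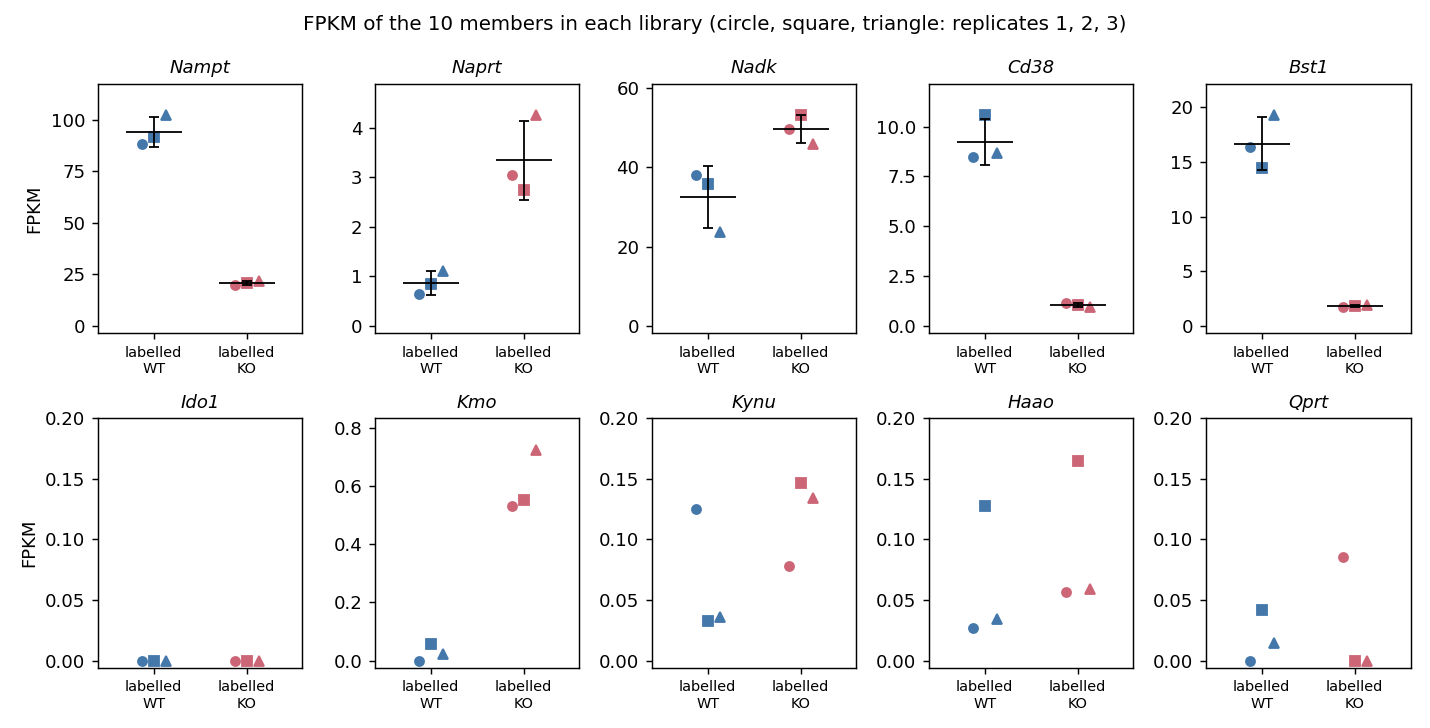
FPKM of each of the 10 members (vertical axes, linear, each with its own range) in the WT-labelled libraries (blue) and KO (red). Circles, squares and triangles are replicates 1, 2 and 3. Horizontal lines and bars are mean and SD, drawn for the 5 members with a mean of at least 0.5 FPKM. *Nampt* falls from between 88.4 and 102.2 to between 19.8 and 21.7 FPKM, *Cd38* and *Bst1* fall with it, *Naprt* and *Nadk* rise, and the kynurenine enzymes stay under 1 FPKM.

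Both surface enzymes that split NAD fell in the KO-labelled libraries, each to about the same fraction of its level. *Cd38* (ENSMUSG00000029084, chromosome 5 from 43868553 to 43912375, plus strand) had 8.49, 10.6 and 8.65 FPKM in the WT-labelled libraries and 1.14, 1.03 and 0.952 FPKM in the KO-labelled ones. The lowest library labelled WT was several times above the highest labelled KO. Its mean FPKM was 8.88 times higher in the WT-labelled libraries, and the log2 fold change on the FPKM + 0.5 scale was -2.66 (standard error 0.12, 95% interval -2.94 to -2.37, limma adjusted p = 1.36e-05). Of the annotated genes that overlap *Cd38*, *Gm16014* was listed at 0 in every library and the antisense *Gm16015* had 0.665 FPKM in WT replicate 1, 0.0842 FPKM in WT replicate 3 and 0 in the others, and neither shares exonic bases with it.

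*Bst1* (ENSMUSG00000029082, chromosome 5 from 43818885 to 43843986, plus strand) encodes CD157. It had 16.3, 14.4 and 19.3 FPKM in the WT-labelled libraries and 1.69, 1.84 and 1.93 FPKM in the KO-labelled ones. Again the groups were far apart. Its mean FPKM was 9.16 times higher in the WT-labelled libraries (16.7 ± 2.43 against 1.82 ± 0.124 FPKM, SD, n = 3 each), and its log2 fold change was -2.88 (standard error 0.12, 95% interval -3.18 to -2.58, limma adjusted p = 1.13e-05). *Bst1* overlaps *Fbxl5* on the opposite strand, with 98 shared exonic bases. *Fbxl5*, which encodes an iron-sensing ubiquitin ligase subunit, was lower too, at 9.53 ± 0.184 and 4.23 ± 0.477 FPKM (SD, n = 3 each, log2 fold change -1.09, limma adjusted p = 0.000344). Whether the counting used strand is not given in the sources used here, and the part of *Fbxl5* reads in the *Bst1* values was not tested.

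The paralogs *Bst1* and *Cd38* are neighbours, 24566 bases apart on the same strand with no annotated gene between them. Their ratio within a library showed no separation of the groups. The *Bst1* to *Cd38* ratio was 1.92, 1.37 and 2.23 in the WT-labelled libraries and 1.49, 1.79 and 2.03 in the KO-labelled ones, and the 2 ranges overlapped.

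**Figure D2:**
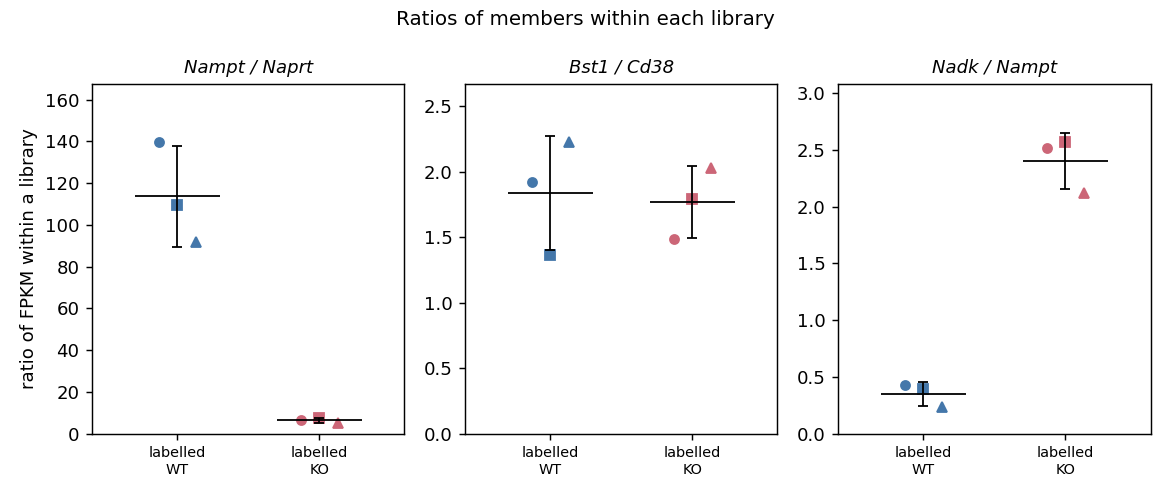
Ratios of FPKM within each library (vertical axes, linear, starting at 0) for *Nampt* to *Naprt*, *Bst1* to *Cd38* and *Nadk* to *Nampt*, with symbols and colours by replicate and group and with mean and SD of 3 libraries. The first ratio falls from at least 92.0 to at most 7.55, the third rises from at most 0.431 to at least 2.12, and the *Bst1* to *Cd38* ratio overlaps between groups.

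*Nampt* and *Bst1* are also transcribed by neutrophils, and *Cd38* and *Bst1* by B-lineage cells. All 3 were lower in the libraries in which the summed neutrophil and B-cell markers were higher. The neutrophil marker *Mmp8* was lower there as well, and the part of these cells in the values of the 3 genes was not tested. The rises of *Naprt* and *Nadk* went in the same direction as those marker sums, whose part in them was not tested. In bulk RNA, fewer cells of a type and less RNA per cell cannot be told apart. Stromal cells had no marker list here. The collagen gene *Col1a1* had 361.1, 329.9 and 227.9 FPKM in the WT-labelled libraries and 337.5, 344.1 and 292 FPKM in the KO-labelled ones. It was not called (limma adjusted p = 0.675). Its cell source, and the part of such cells in the values of the members, were not tested.

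The kynurenine enzymes were at or near 0, with *Kmo* as the exception. *Ido1*, *Kmo*, *Kynu*, *Haao* and *Qprt* all had a mean under 0.5 FPKM and were not tested with the others. *Ido1* (ENSMUSG00000031551, chromosome 8 from 24584136 to 24597009, minus strand), which opens the pathway, was listed at 0 in all 6 libraries. *Kmo* (ENSMUSG00000039783, chromosome 1 from 175620381 to 175662116, plus strand), which hydroxylates kynurenine, was listed at 0 in WT replicate 1 and had 0.0585 and 0.0235 FPKM in WT replicates 2 and 3, and it had 0.534, 0.553 and 0.725 FPKM in the KO-labelled libraries. The groups did not overlap. With no filter on low values, 28101 genes entered the test and 3180 were called higher. *Kmo* was among them, with a log2 fold change of 1.06 (limma adjusted p = 0.00188). The *Kmo* locus overlaps *Fh1*, the mitochondrial fumarase gene, by 5255 bases on the opposite strand, with no shared exonic bases. *Fh1* was higher as well, at 10.2 ± 1.58 and 18.6 ± 2.19 FPKM (SD, n = 3 each, log2 fold change 0.85, limma adjusted p = 0.00366), and the part of its reads in the *Kmo* values was not tested.

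*Kynu* (ENSMUSG00000026866), which cleaves kynurenines, had between 0.033 and 0.125 FPKM in the WT-labelled libraries and between 0.0783 and 0.146 FPKM in the KO-labelled ones. *Haao* (ENSMUSG00000000673), which forms the precursor of quinolinic acid, had between 0.0269 and 0.128 FPKM and between 0.057 and 0.165 FPKM. *Qprt* (ENSMUSG00000030674), which joins quinolinic acid to the NAD route, was listed at 0 in WT replicate 1 and KO replicates 2 and 3 and did not exceed 0.0858 FPKM elsewhere. For all 3 the groups overlapped, and with no filter on low values none was called (limma adjusted p = 0.375, 0.662 and 0.854). No difference was detected in these enzymes, and a listed 0 is no proof of absence.

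Set against the whole table, 3 of the 5 tested members were called lower and 2 higher in the KO-labelled libraries with an adjusted p-value under 0.05. Over all 13367 tested genes, 10.5% were called lower and 27.1% higher. With the threshold of the study, more than 2-fold with p under 0.05 before adjustment, the same 3 members were lower and only *Naprt* of the 5 was higher, where 4.43% of all tested genes were lower and 6.68% higher. Each of the 5 averaged more than 0.5 FPKM in both groups, and the counts describe these 5 and not all 10. Ranked from the largest fall, *Bst1* stood at position 97, *Cd38* at 116 and *Nampt* at 176 of the 13367. Ranked from the largest rise, *Naprt* stood at 283 and *Nadk* at 2376. The median of all tested genes was 0.19, so the rise of *Nadk* by 0.63 was less far from the bulk of genes than from 0. With median-of-ratios scaling that median was -0.01, and the split of all called genes changed from 3619 higher and 1408 lower to 2044 higher and 2263 lower.

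**Figure D3:**
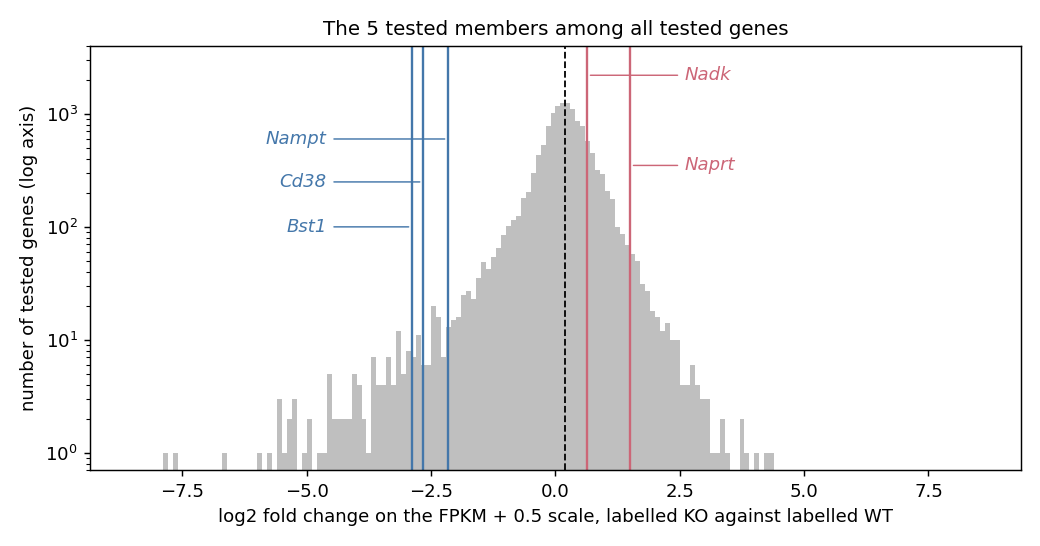
Number of tested genes (vertical axis, logarithmic) by log2 fold change on the FPKM + 0.5 scale between libraries labelled KO and labelled WT (horizontal axis). Vertical lines mark the 5 tested members and the dashed line the median of all 13367 genes, 0.19. *Bst1*, *Cd38* and *Nampt* lie in the lower tail between -2.88 and -2.15, *Naprt* in the upper tail at 1.49, and *Nadk* on the shoulder at 0.63.

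Of 41 further genes of NAD and tryptophan metabolism, with 42 identifiers, 31 identifiers were tested, 11 were called higher, 3 lower and 17 were not called, against the 27.1% and 10.5% above. Their median log2 fold change was 0.26, close to the 0.19 of all genes. The 3 called lower were *Slc3a2*, *Tiparp* and *Nmnat2*, of which *Tiparp* and *Nmnat2* were named after their values were seen.

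In NAD synthesis and transport, 3 of 9 tested identifiers were higher, 1 was lower and 5 were not called, where 27.1% of all tested genes were higher and 10.5% lower. *Nmnat2*, best known from axons, had 1.01, 0.899 and 0.913 FPKM in the WT-labelled libraries and 0.294, 0.482 and 0.321 FPKM in the KO-labelled ones (log2 fold change -0.74, limma adjusted p = 0.00784). It passed the filter on low values only through the WT-labelled libraries, as the KO-labelled ones averaged 0.366 FPKM, so it had to differ to be tested and its call is given as a description. *Nmnat1* and *Nmnat3* had log2 fold changes of 0.26 and 0.23 and were not called. *Nadk2*, the mitochondrial NAD kinase, went from 2.09 ± 0.116 to 3.21 ± 0.186 FPKM and *Nmrk1*, which phosphorylates nicotinamide riboside, from 1.37 ± 0.375 to 2.24 ± 0.114 FPKM (SD, n = 3 each), with log2 fold changes of 0.52 and 0.57 (limma adjusted p = 0.0072 and 0.0309), but neither was called with median-of-ratios scaling (0.0542 and 0.13). *Slc25a51*, the carrier of NAD into mitochondria, had 12.7 ± 1.10 and 10.5 ± 1.31 FPKM (SD, n = 3 each) and was not called (log2 fold change -0.26, limma adjusted p = 0.127), while with median-of-ratios scaling it was lower (-0.48, adjusted p = 0.0248). *Nnt*, the transhydrogenase between NADH and NADPH, has 2 identifiers that may share reads and is uncertain. The more abundant (ENSMUSG00000116207) had 5.21 ± 1.61 and 9.24 ± 0.625 FPKM (SD, n = 3 each, log2 fold change 0.81, limma adjusted p = 0.0184). Its change was 0.59 and not called with median-of-ratios scaling (limma adjusted p = 0.0506), and 0.61 and called with upper-quartile scaling (0.0439). The other identifier was not called.

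Among the remaining genes of kynurenine and tryptophan breakdown, 6 of 8 lay under the filter, *Ido2*, *Tdo2* and *Il4i1* with at most 0.105, 0.0634 and 0.0945 FPKM in any library. *Kyat1*, a kynurenine aminotransferase, had 0.582, 0.433 and 0.221 FPKM in the WT-labelled libraries and 1.25, 1.02 and 1.11 FPKM in the KO-labelled ones (log2 fold change 0.85, limma adjusted p = 0.0111). It passed the filter only through the KO-labelled libraries, as the WT-labelled ones averaged 0.412 FPKM, so this call too is a description. *Afmid*, which hydrolyses formylkynurenine, varied within the group labelled WT, with 1.71 FPKM in replicate 2 against 0.421 and 0.417 FPKM in the others, and was not called (limma adjusted p = 0.736).

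Of the intracellular enzymes that consume NAD or clear nicotinamide, 4 of 12 tested were higher at an adjusted p-value under 0.05 in limma. None was lower at that threshold or at an unadjusted p-value under 0.05. Over all tested genes 27.1% were called higher and 10.5% lower, so in a list of this size the counts do not set these enzymes apart. *Parp1*, the DNA damage-sensing polymerase of ADP-ribose, had 10.2, 9.16 and 7.78 FPKM in the WT-labelled libraries and 21.3, 20.9 and 17.4 FPKM in the KO-labelled ones. Its groups were clearly apart, by 1.10 on the log2 scale (standard error 0.13, limma adjusted p = 0.000898), and 0.88 with median-of-ratios scaling (adjusted p = 0.00175). *Parp2*, *Sirt4* and *Sirt2* rose by 0.44, 0.56 and 0.39 on the log2 scale (limma adjusted p = 0.0081, 0.0104 and 0.0331), and none of the 3 was called with median-of-ratios scaling (0.0921, 0.0564 and 0.275). *Tnks2* had 14.0 ± 0.868 and 15.5 ± 0.161 FPKM (SD, n = 3 each) and was not called, with a log2 fold change of 0.14 (95% interval -0.05 to 0.34, limma adjusted p = 0.209).

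Tryptophan enters cells through a transporter made of *Slc7a5* and *Slc3a2*, and its transcripts moved apart. *Slc3a2*, the heavy chain shared with other amino acid transporters, had 196.9, 181.9 and 198.3 FPKM in the WT-labelled libraries and 75.8, 64.8 and 66.7 FPKM in the KO-labelled ones, which is -1.47 on the log2 scale (standard error 0.09, limma adjusted p = 5.39e-05). *Slc7a5*, the light chain, had 9.48, 9.07 and 7.09 FPKM in the WT-labelled libraries and 14.0, 14.9 and 11.4 FPKM in the KO-labelled ones, which is 0.62 on the log2 scale (limma adjusted p = 0.0166). Its change was 0.40 and not called with median-of-ratios scaling (limma adjusted p = 0.0601), and 0.42 and called with upper-quartile scaling (0.0494). The aryl hydrocarbon receptor, for which kynurenine is a ligand, was read through its targets, and these did not move together. *Cyp1b1* rose from 26.7 ± 2.13 to 39.8 ± 2.43 FPKM (SD, n = 3 each, log2 fold change 0.57, limma adjusted p = 0.00379) and *Ahrr* by 0.76 on the log2 scale (adjusted p = 0.00682), while *Tiparp* fell by 0.86 on the log2 scale (adjusted p = 0.000308) and *Cyp1a1* was at most 0.0195 FPKM in any library. All 8 tested genes of this list divided into 3 higher, 2 lower and 3 not called, where 27.1% of all tested genes were higher and 10.5% lower. With median-of-ratios scaling *Wars*, which charges tryptophan onto its tRNA, and *Arnt*, the partner of the receptor, were called lower as well (-0.66 and -0.31 on the log2 scale, adjusted p = 0.0183 and 0.0429), where as deposited they had -0.44 and -0.10 (adjusted p = 0.0843 and 0.428). With upper-quartile scaling *Wars* was called lower (-0.64, limma adjusted p = 0.0176) and *Arnt* was not called (-0.30, limma adjusted p = 0.052).

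**Figure D4:**
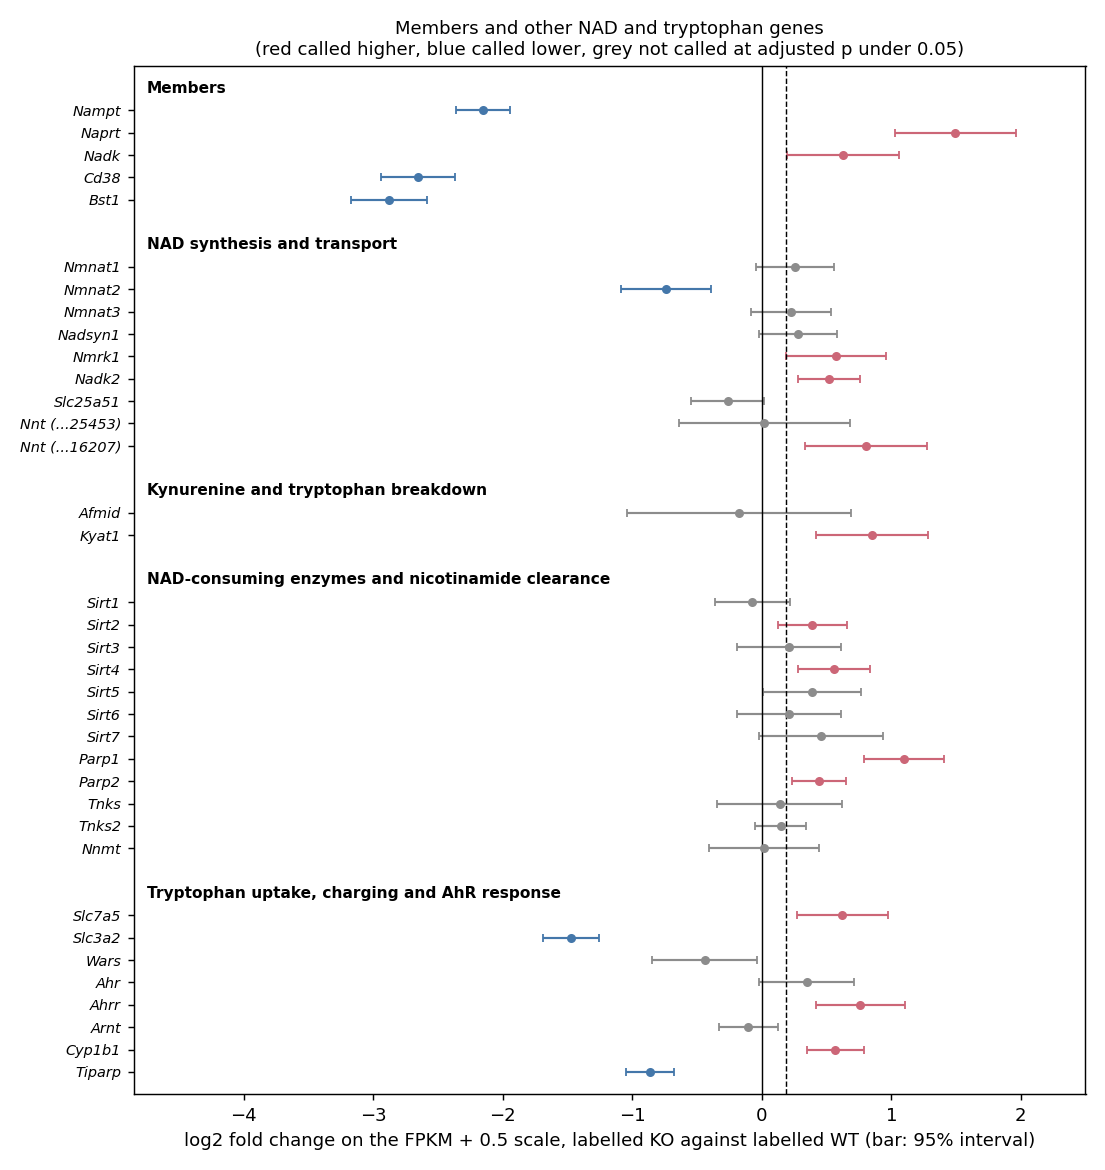
Log2 fold change on the FPKM + 0.5 scale between libraries labelled KO and labelled WT (horizontal axis) with its 95% interval for the 5 tested members and the 31 tested identifiers of the other lists. Red marks genes called higher, blue genes called lower and grey genes not called at an adjusted p-value under 0.05, and the dashed line is the median of all tested genes, 0.19. The intervals of *Nampt*, *Cd38* and *Bst1* end at -1.94 or below, and *Slc3a2* at -1.47 is the lowest of the other genes.

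The calls of *Nampt*, *Naprt*, *Cd38* and *Bst1* held under all 15 alternatives tried. The log2 fold change of *Nampt* lay between -2.38 and -2.09, that of *Cd38* between -3.03 and -2.32, that of *Bst1* between -3.12 and -2.64 and that of *Naprt* between 1.22 and 1.85. *Nadk* stayed above 0 in all 15, between 0.40 and 0.76, and kept its call in 9.

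**Figure D5:**
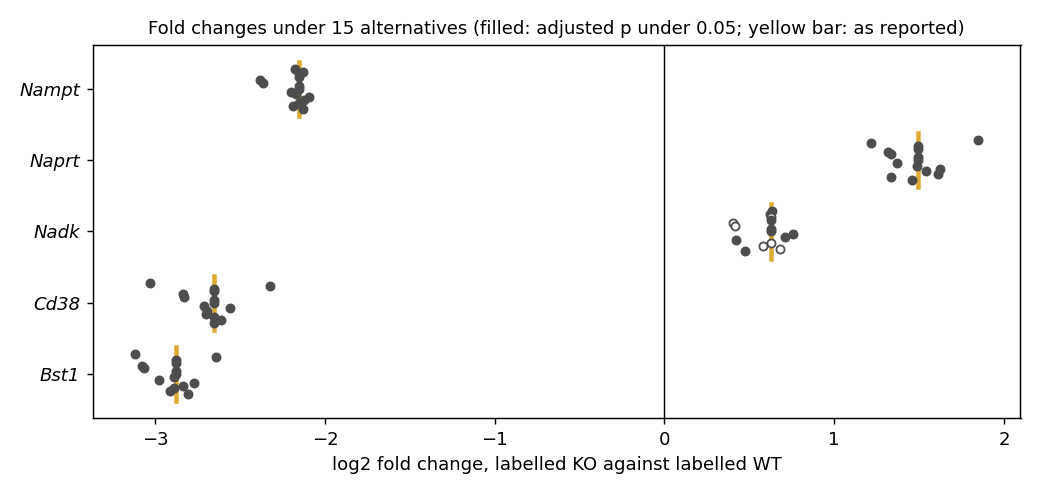
Log2 fold change of the 5 tested members (horizontal axis) as reported (yellow bars) and under 15 alternatives of pseudocount, filter, scaling, variance model, replicate block and left-out libraries (points, filled where the adjusted p-value was under 0.05). *Nadk* has 6 open points between 0.40 and 0.68, and the other 4 members have none.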

How the data were processed

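The authors deposited FPKM per gene for 6 RNA-seq libraries of sorted BMDMs, with 1 column for each library. The submitters' processing notes name fastp 0.17.1, HISAT2 2.1.0, DESeq2 1.18.1 and R 3.4.3. The quantifier, annotation and genome build are not given in the sources used here, and labels and methods name different extraction and library kits. Of 55335 identifiers, 55154 (99.7%) matched GENCODE M21. The low FPKM values did not give whole fragments, so no count test was run. Nothing says that replicates came from separate animals or cultures, so p-values measure only the spread between these libraries.

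The limma package (3.58.1, R 4.3.3) was fitted to log2(FPKM + 0.5) with eBayes and its trend option, two-sided, without covariates or scaling between libraries, and p-values were Benjamini-Hochberg adjusted over the 13367 genes that averaged 0.5 FPKM or more. The fit was first tested on simulated data with 200 of 13367 genes changed. It recovered 58 of 100 changes of 2-fold and 91 of 100 of 4-fold, with 13 false calls. A gene that was not called may therefore still differ. Many more genes were called in the data than were changed in the simulation, so these rates may not carry over. Alternatives covered pseudocount, filter, scaling, variance trend, replicate block, threshold and each library left out. Leaving out both replicates 3 and searching the GC box were chosen after seeing the data. Printing the *Nampt* sequence, rather than that of a member with a larger fall, departed from the plan. Members, pathway lists and marker lists were chosen with earlier results of these data known. Named genes are the members, list genes called with a log2 fold change of at least 1 in size, and the 2 most abundant of each list. *Nmnat2*, *Tiparp* and further list genes were named after their values were seen. The RefSeq tables given held no proteins, so the planned comparison of the CD38 and BST1 proteins was not made, and the planned *Kmo* to *Kynu* ratio was left out because both were near 0. Python 3.11.15 with pandas 2.3.3 was used for summaries. The planned motif search is not reported here.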

Additional observations from a re-analysis of the deposited data

How the results depend on the processing

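The number of members called was 4 or 5 in every alternative, and the 3 falls were called in each. With no filter on low values 9 were tested, and *Kmo* was called where *Nadk* was not. Over all genes, 4505 of 28101 were called in that setting, 3180 higher and 1325 lower. *Kmo* had at most 0.0585 FPKM in the WT-labelled libraries, a level for which no counting error can be given. *Nadk* accounts for the other changes at this threshold, and its values without each KO replicate, without the filter and with other scaling are given above. With the threshold of the study, 1485 of all genes and 2 of the other NAD and tryptophan genes were called, against 5027 and 14 at an adjusted p-value under 0.05. With both replicates 3 left out, 6469 were called. Scaling shifted directions among the other NAD and tryptophan genes from 11 higher and 3 lower to 4 and 6 with median-of-ratios and to 6 and 5 with upper-quartile scaling. With median-of-ratios scaling 47.5% of all called genes were higher, with upper-quartile scaling 49.5%, and as deposited 72.0%. Without KO replicate 1, 7 of the other genes were higher. Over the 6 fits that each dropped 1 library, the whole table gave 3479 (without KO replicate 1) to 5966 (without WT replicate 3) calls, the members 4 to 5 and the other genes 10 to 15. The replicate block called 5 members, 15 of the other genes and 5934 of all genes. Samples of the same number (1, 2 and 3) had deviations correlated at 0.116, 0.036 and 0.264. Those of different numbers had correlations between -0.233 and 0.160. The value of the 2 replicates 3 was thus the highest, and both lay on the same side of the second principal component. An effect shared by replicates 3 was not tested further, and the main fit left the libraries unpaired. Without read counts, values under about 0.1 FPKM, as in most kynurenine enzymes, cannot be given a counting error.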
